A study of Mus musculus with 18 samples.

Results

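Meiotic DNA breaks were mapped in males of the 2 reciprocal crosses that combine the PWD allele and the humanized (Hum) allele of Prdm9, and the maps were set side by side hotspot by hotspot. With the mother written first, the rescue map came from (PWDxB6)F1 males, whose mothers were PWD and fathers B6, and the genotype was PWD/Hum. The Hum/PWD map came from (B6xPWD)F1 males, whose mothers were B6 and fathers PWD, and the genotype was Hum/PWD. In both crosses the Hum allele entered with the B6 parent and the PWD allele with the PWD parent. All males were about 10 weeks old, the tissue was testis, and the assay was DMC1 ChIP followed by sequencing of single-stranded DNA. The sources used here do not give how many animals went into a library. Each map rests on 1 library and no depth is given, so no value below carries a replicate error or a p-value. The direction of the cross, the parent that gave each Prdm9 allele, the sex chromosomes, the mitochondria and the library itself cannot be told apart. The rescue map held 15019 autosomal hotspots and the Hum/PWD map 20623, of 148233 in the 8 mm10 maps used. Hotspots were paired where their centres lay within 1000 bp and each was the nearest to the other. This gave 14389 pairs, 616 sites with no partner in the rescue map and 6223 with none in the Hum/PWD map. Coordinates are mm10.

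PRDM9 binds DNA through an array of zinc fingers and trimethylates lysine 4 of histone H3 (H3K4me3) beside its binding site. Breaks made there are resected to single strands, which DMC1 coats before strand exchange with the homologous chromosome. Alleles of Prdm9 differ in their zinc fingers and so place hotspots at different sequences. In a hybrid that carries a pair of alleles, each hotspot can be placed by one allele or the other, and DMC1 reads that cover a sequence difference between the strains show on which chromosome the break lay. PWD mothers crossed with B6 fathers give sterile sons when the B6 allele is carried with the PWD allele, and the humanized allele restores the fertility of such sons, hence the name rescue.

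Hotspots were typed by the homozygous map they matched within 1000 bp: Hum-type for a Hum/Hum site of B6 males, PWD-type for a PWD/PWD site of the PWD strain. The human zinc fingers are known to recognise the degenerate 13-base motif CCNCCNTNNCCNC, where N is any base. The next lines print stretches of the mm10 plus strand (RefSeq assembly GRCm38.p6) for sites that later results turn on, with matches to this motif on either strand in capitals. The first 3 are the sites, among those singled out for their heat or B6 share, that held a match within 250 bp, and they are centred on it. The others are centred on the rescue hotspot and hold no match in these letters. They are shown because they carry the hottest pairs, the largest differences and the hottest site found in one direction only.
Hum-type near Phtf2 (chr5:20754445-20754545): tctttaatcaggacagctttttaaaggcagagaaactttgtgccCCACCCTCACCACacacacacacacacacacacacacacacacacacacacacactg
Hum-type near Lsm5 (chr6:56676993-56677093): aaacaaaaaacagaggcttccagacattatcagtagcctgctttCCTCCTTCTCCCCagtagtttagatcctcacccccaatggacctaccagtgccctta
Hum-type in Gabbr2 (chr4:46960792-46960892): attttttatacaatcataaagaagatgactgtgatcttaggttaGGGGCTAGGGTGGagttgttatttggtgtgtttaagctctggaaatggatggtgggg
Hum-type in Gm47771 (chr10:17565214-17565314): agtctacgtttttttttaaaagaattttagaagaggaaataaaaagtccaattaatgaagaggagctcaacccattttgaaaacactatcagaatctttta
PWD-type in Zfc3h1 (chr10:115417940-115418040): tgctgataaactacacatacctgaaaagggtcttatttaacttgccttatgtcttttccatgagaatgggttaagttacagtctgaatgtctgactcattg
Neither type in Lamb1 (chr12:31267662-31267762): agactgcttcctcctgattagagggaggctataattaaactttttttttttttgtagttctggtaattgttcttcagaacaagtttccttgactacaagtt
Neither type near Gstk1 (chr6:42244339-42244439): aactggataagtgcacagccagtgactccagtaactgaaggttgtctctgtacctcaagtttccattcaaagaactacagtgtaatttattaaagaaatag
PWD-type near Moxd2 (chr6:40890936-40891036): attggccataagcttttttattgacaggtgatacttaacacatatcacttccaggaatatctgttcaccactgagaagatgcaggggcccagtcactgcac
Rescue only in Ntf3 (chr6:126101828-126101928): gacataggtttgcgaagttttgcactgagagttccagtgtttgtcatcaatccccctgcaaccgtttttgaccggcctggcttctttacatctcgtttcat

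The motif separated the types without any use of heat. Within 250 bp of the centre it stood at 23.2% of 7632 paired Hum-type sites (95% Wilson interval 22.2 to 24.1%), against 4.85% of windows 10 kb upstream of the same centres. Among 3596 paired PWD-type sites it stood at 3.75% (3.18 to 4.43%), near the 4.62% upstream. Paired sites that matched neither homozygous map numbered 2839, and 9.23% held it. This group fell into opposite sides by the share of DMC1 reads on the B6 chromosome, the B6 share. The motif stood at 11.4% (9.75 to 13.3%) of the 1199 sites with a mean B6 share of at most 0.1, whose breaks lay on the PWD chromosome. It stood at 4.32% (3.26 to 5.72%) of the 1064 sites with a mean share above 0.9, whose breaks lay on the B6 chromosome. A match is a description of the letters, and no match says nothing of binding. Matches were sought in mm10 alone and not in PWD sequence. At sites broken on the PWD chromosome the letters of that chromosome were therefore not read.

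The 2 maps held largely the same hotspots at the same places. In the rescue map 95.9% of hotspots (95.6 to 96.2%) had a Hum/PWD centre within 1000 bp, and these carried 99% of its heat. Heat is the relative DMC1 signal that the authors give each hotspot. In the Hum/PWD map 69.8% of hotspots (69.2 to 70.5%) had a rescue centre, and these carried 93.2% of its heat. Paired centres lay 65 bp apart in the median and 242 bp at the 90th percentile. The lists differ in reach, since the lowest heat was 13.7 with the PWD mother (rescue) and 5.8 with the B6 mother (Hum/PWD).

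Both alleles were in use in both directions of the cross. Of the pairs, 7632 were Hum-type, 3596 PWD-type, 322 matched both homozygous maps and 2839 matched neither. Sites whose H3K4me3 input was over 10 times the median were left out of the named ones. Among the hottest pairs were Hum-type sites: an intron of Gm47771 (chr10:17565264) had a heat of 922.5 with the PWD mother (rescue) and 847.9 with the B6 mother (Hum/PWD), and an intron of Cfap54, a gene of the cilium axoneme (chr10:93007643), had 927.5 and 811.6. A site 4331 bp from Phtf2 (intergenic, chr5:20754332), printed above, had 933.2 and 696.5. The 3 hottest PWD-type pairs lay 9664 bp from 2310061N02Rik (intergenic, chr16:88697505) with 745.1 and 705.7, in an intron of Zfc3h1 (chr10:115417990) with 792.5 and 617.3, and 861222 bp from Rapgef2 (intergenic, chr3:78201294) with 689.1 and 700. Among sites of neither type, introns of Mllt3, a chromatin reader of the transcription machinery (chr4:88017097, 786.3 and 799.9), Rxfp1, the relaxin receptor (chr3:79668803, 794.8 and 631.9), and Ift80, a gene of ciliary transport (chr3:68941808, 667.6 and 629.9), were hottest. In the Rxfp1 site the B6 share was 0.003 and 0.006, and in the Mllt3 and Ift80 sites it was at least 0.988 in both maps, so these very hot sites were broken almost only on one parental chromosome whichever parent was the mother.

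Heat followed the same order in both maps. Spearman's rho over 14389 pairs was 0.928 and Pearson's r of log2 heat was 0.933, both descriptions across sites of 1 library each. The log2 ratio of rescue to Hum/PWD heat had a median of 0.12 (95% interval of the median 0.11 to 0.13), an SD of 0.48 and a range from -2.39 to 2.20. Heat differed by at most 1.5-fold at 77.3% of pairs. At least 2-fold more heat was found in the rescue map at 674 pairs, 4.68% of those compared, and in the Hum/PWD map at 138, 0.959%. In 5 equal groups from the coolest to the hottest pairs, the rescue-hotter calls numbered 438, 138, 66, 24 and 8. The Hum/PWD-hotter calls numbered 19, 42, 52, 20 and 5, most of them in the middle groups. With a heat of at least 50 required in both maps the counts were 38 and 27. With each map scaled to the same sum they were 525 and 188, and with the ratios divided by their median 425 and 249. The size of the excess on the rescue side thus changed with the scale and with the heat required. The lowest heats listed were 13.7 (rescue) and 5.8 (Hum/PWD), and their part in these counts was not tested.

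**Figure D1:**
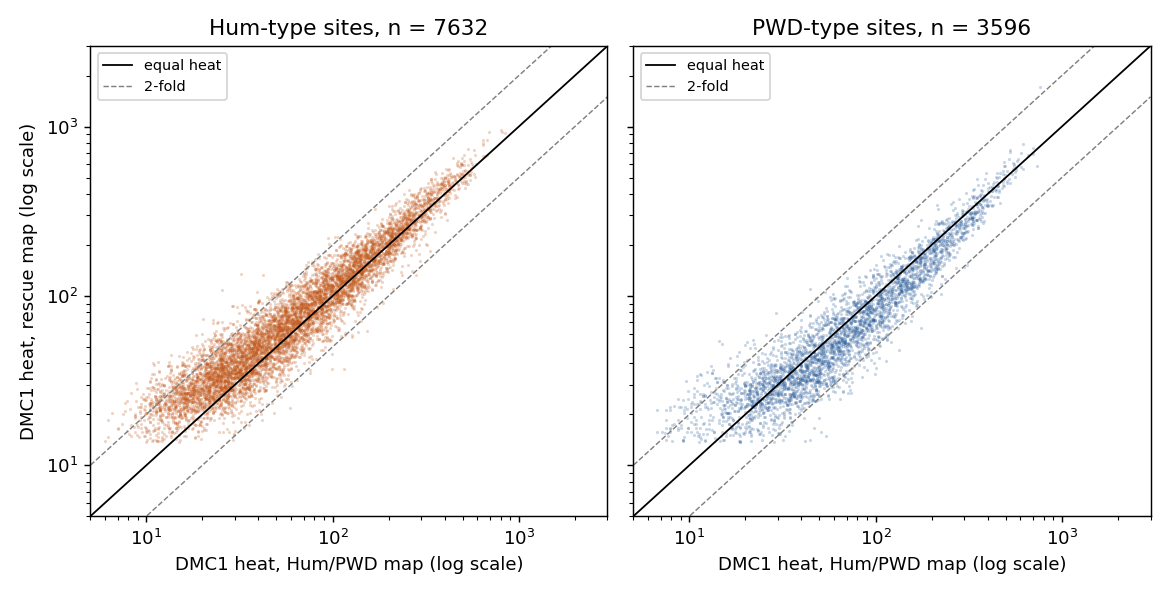
DMC1 heat of each paired hotspot in the rescue map (vertical) against the Hum/PWD map (horizontal), both on log scales, for the 7632 Hum-type sites on the left and the 3596 PWD-type sites on the right. The solid line marks equal heat and the dashed lines a 2-fold difference; more Hum-type points lie above the solid line and more PWD-type points below it.

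Hotspots of the Hum allele were hotter in the rescue males relative to those of the PWD allele. Hum-type pairs had a median log2 ratio of 0.23 (0.22 to 0.24, n = 7632), and 72.5% of them were hotter in the rescue map. PWD-type pairs had a median of -0.13 (-0.15 to -0.12, n = 3596), and 36.7% were hotter in the rescue map. The medians differed by 0.36, a factor of 1.29. Summed over pairs, Hum-type sites carried 2.35 times the heat of PWD-type sites in the rescue map and 1.93 times in the Hum/PWD map. Heat is relative within a map, so this balance between alleles can be read but not whether either allele made more breaks. Calls of at least 2-fold more heat in the rescue map made up 5.50% of Hum-type and 2.45% of PWD-type pairs, beside 4.68% of all pairs. Calls in the other direction made up 0.314% and 2.03%, beside 0.959%.

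Sites of neither type divided in the same way once their side was known. The 1199 of them broken on the PWD chromosome, with a mean B6 share of at most 0.1, had a median log2 ratio of 0.22 (0.20 to 0.25). The 1064 broken on the B6 chromosome, with a mean share above 0.9, had -0.20 (-0.22 to -0.17). The 228 with a mean share from 0.1 to 0.3 had 0.53 (0.42 to 0.60), the 32 from 0.3 to 0.7 had 0.76 (0.60 to 0.99) and the 59 from 0.7 to 0.9 had -0.08 (-0.25 to 0.11). Of these 2839 sites the authors' allele column, which is in the rescue file, assigned 1083 to the Hum allele, with a median of 0.21 (0.18 to 0.24), and 424 to the PWD allele, with -0.11 (-0.16 to -0.06). The 1332 left undetermined had 0.01 (-0.02 to 0.05). The sources used here do not give how the allele was assigned.

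The contrast between alleles ran through the whole range of heat but its size changed with it. Pairs were split into 5 equal groups by the geometric mean of both heats. In the coolest group, from 9.13 to 28.8, the medians were 0.53 for Hum-type and 0.19 for PWD-type sites. In the third, from 45.7 to 77.5, they were 0.19 and -0.23. In the hottest, from 146 upwards, they were 0.11 and -0.12. The coolest group is the one that the higher lowest heat of the rescue list touches most, since a pair there needs a rescue heat of at least 13.7. In 5 groups by GC content of the 1 kb around the centre the Hum-type median was 0.23 in each and the PWD-type median was between -0.16 and -0.07. Hum-type sites with and without the 13-base motif had 0.22 (n = 1768) and 0.23 (n = 5864).

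All 19 autosomes showed the Hum-type median above the PWD-type median. The Hum-type median was above 0 on all 19, from 0.13 on chromosome 9 (0.07 to 0.17, n = 350) to 0.38 on chromosome 16 (0.31 to 0.41, n = 317) and 0.38 on chromosome 19 (0.28 to 0.44, n = 242). The PWD-type median was below 0 on 17, from -0.24 on chromosome 8 (-0.30 to -0.17, n = 189) to -0.07 on chromosome 19. On chromosome 12 it was 0.01 (-0.09 to 0.08, n = 194) and on chromosome 16 it was 0.04 (-0.03 to 0.08, n = 162). Chromosomes with a high median for one allele also had a high median for the other, with a Spearman's rho of 0.760 over the 19 autosomes. Over all pairs the median ran from 0.01 on chromosome 9 to 0.25 on chromosome 16, with 0.24 on chromosome 19 and 0.22 on chromosome 12.

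**Figure D2:**
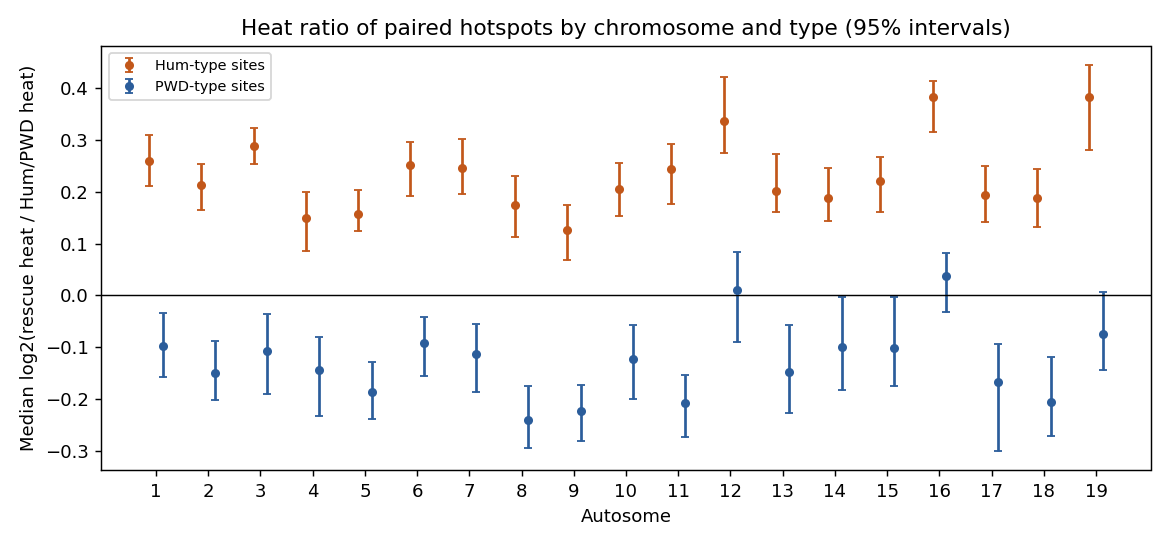
Median log2 ratio of rescue to Hum/PWD heat on each autosome, with the 95% order-statistic interval of the median, for Hum-type and PWD-type pairs. The Hum-type median lies above the PWD-type median on all 19 autosomes, and both are high on chromosomes 12, 16 and 19.

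Along the chromosomes the ratio was lowest in the last 5 Mb before the distal end. Over 103 pairs in the last 2 Mb the median was -0.10 (-0.27 to 0.03), over 325 pairs from 2 to 5 Mb from the end it was -0.18 (-0.24 to -0.09), over 767 from 5 to 10 Mb it was 0.07 (0.01 to 0.11) and over 1432 from 10 to 20 Mb it was 0.19 (0.17 to 0.22). Farther in it was lower again, 0.16 (0.14 to 0.17) over 3566 pairs from 20 to 50 Mb and 0.10 (0.09 to 0.11) over 8196 beyond 50 Mb. Both types took part, with medians from 2 to 5 Mb of -0.05 for Hum-type (n = 188) and -0.36 for PWD-type sites (n = 64), and from 10 to 20 Mb of 0.28 and -0.07. On 18 of 19 autosomes the median over pairs within 5 Mb of the end lay below that of the rest. The exception was chromosome 15, and 5 autosomes had fewer than 15 such pairs. Hotspots without a partner were also more frequent there in the Hum/PWD map. Of the Hum/PWD hotspots in the last 2 Mb 48% had no rescue partner, from 2 to 5 Mb 37.4% and from 10 to 20 Mb 27.7%, while in the last 2 Mb none of 103 rescue hotspots lacked a Hum/PWD partner. In windows of 10 Mb with at least 20 pairs, the median ran from -0.40 to 0.41 over 243 windows. The highest were chr19:40 to 50 Mb at 0.41 (n = 118) and chr1:30 to 40 Mb at 0.39 (n = 68). Among the lowest were those from 150 Mb on chromosome 3 at -0.36 (n = 39) and from 140 Mb on chromosome 4 at -0.29 (n = 57). Low and high windows were not tied to one end: the window from 10 Mb on chromosome 9, far from the distal end, had -0.22 (n = 38), and that from 90 Mb on chromosome 16, which holds the distal end, had 0.35 (n = 87).

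The same contrast of mothers could be read a second time in the crosses that carry the B6 allele in place of Hum, from libraries that the comparison above does not use. There the (PWDxB6)F1 males with PWD/B6 are sterile, and the labels of the H3K4me3 samples give them as littermates of the rescue males. At 3781 sites that the authors gave to the PWD allele and that were found in all 4 hybrid maps, the log2 ratio of rescue to Hum/PWD heat went with the log2 ratio of PWD/B6 to B6/PWD heat, with a Spearman's rho of 0.398 and a Pearson's r of 0.443. Of these sites 44 were at least 2-fold hotter with the PWD mother and 86 with the B6 mother in the Hum-allele maps, and 85 differed 2-fold between the B6-allele maps. A 2-fold difference in both contrasts was found at 17 sites, all in the same direction. They were 15 of the 44 hotter with the PWD mother and 2 of the 86 hotter with the B6 mother. The median log2 ratio of PWD/B6 to B6/PWD heat was 0.74 (0.57 to 0.94) at the 44 sites and -0.18 (-0.22 to -0.08) at the 86. It was 0.10 (0.09 to 0.12) at the 3651 sites within 2-fold in the Hum-allele maps, so both groups were shifted in their own direction. Over all 3781 sites, 85 differed 2-fold between the B6-allele maps in either direction. Those 85 were not split by direction here, so the 15 of 44 and the 2 of 86 lack a background for their own direction. The rule for naming sites does not cover these 17, and the examples here were chosen after their values were seen.

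A site 389785 bp from Snrpn (intergenic, chr7:60530004) had a heat of 52.2 with the PWD mother (rescue) and 14.9 with the B6 mother (Hum/PWD), and of 63.1 in the PWD/B6 and 20.6 in the B6/PWD map. A coding exon of Hnrnpa2b1, which encodes an RNA-binding protein (chr6:51466945), had 31.5 and 9.6, then 65 and 23. An intron of Matk, a tyrosine kinase gene (chr10:81254863), had 38.6 and 13.1, then 60.5 and 24.1. In the opposite direction, a site 28346 bp from St6galnac5 (intergenic, chr3:153010592) had 70.8 and 155.4, then 138.1 and 319.7. A site 4429 bp from Epha5, an ephrin receptor gene (intergenic, chr5:84421811), had 41.2 and 114.3, then 37.4 and 77.2. These sites were selected for a 2-fold difference in both contrasts, so their order is a description only.

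**Figure D3:**
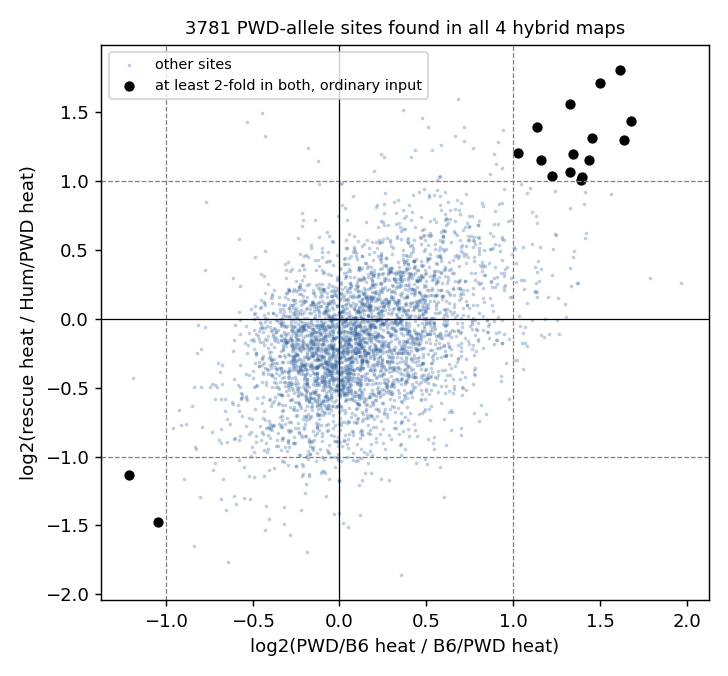
Log2 ratio of rescue to Hum/PWD heat (vertical) against log2 ratio of PWD/B6 to B6/PWD heat (horizontal) at 3781 sites of the PWD allele found in all 4 hybrid maps, 1 point per site. Black points mark the 17 sites at least 2-fold apart on both axes; all lie in the upper right or lower left corner, none in the others.

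Regional medians of the crosses went together too, also where the hotspots themselves were different ones. Over 206 windows of 10 Mb the median ratio of Hum-type pairs alone went with the median ratio of all PWD/B6 and B6/PWD pairs (Spearman's rho 0.523), although those crosses have no Hum allele. Over the 19 autosomes the medians had a rho of 0.537. In the B6-allele crosses the median was -0.27 (-0.31 to -0.22, n = 408) from 2 to 5 Mb of the distal end and 0.13 (0.10 to 0.16, n = 1558) from 10 to 20 Mb. These correlations are across sites or windows, which share the library, its depth and the base composition of the place, and none of these was tested. The level of the PWD allele had opposite signs. At the 3781 sites the median was -0.15 (-0.17 to -0.14) for rescue over Hum/PWD and 0.10 (0.09 to 0.11) for PWD/B6 over B6/PWD.

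**Figure D4:**
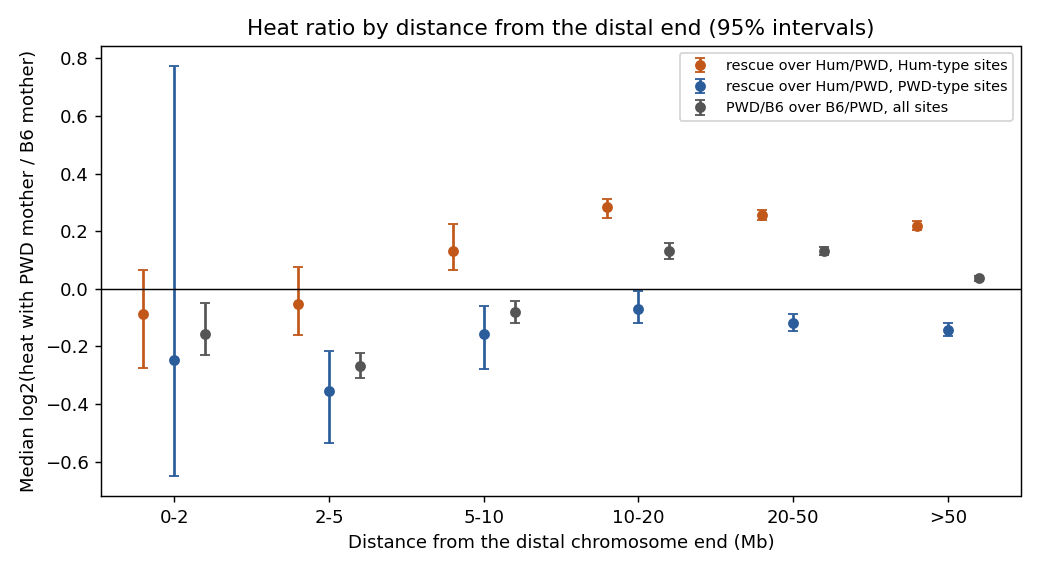
Median log2 ratio of heat with a PWD mother to heat with a B6 mother by distance from the distal chromosome end, with 95% order-statistic intervals, for Hum-type and PWD-type pairs of the rescue and Hum/PWD maps and for all pairs of the PWD/B6 and B6/PWD maps. From 2 to 5 Mb the 3 medians are -0.05, -0.36 and -0.27, below those from 10 to 20 Mb (0.28, -0.07 and 0.13).

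The largest heat ratios were named only among pairs with a heat of at least 50 in one map, so cooler pairs could not enter. Over all pairs the log2 ratio reached 2.20, against 2.09 at the first site below. A site 23895 bp from Lsm5 (intergenic, chr6:56677168, Hum-type), printed above, had a heat of 108 with the PWD mother (rescue) and 25.4 with the B6 mother (Hum/PWD), 4.25-fold higher. A site 5667 bp from Fabp12 (intergenic, chr3:10238542, Hum-type) had 134.5 and 32.1, 4.19-fold higher. An intron of Speer4cos (chr5:15689851, matching both types) had 73.1 and 18.6, a site 723137 bp from Ndn (intergenic, chr7:61623432, PWD-type) 54.3 and 14.5, and an intron of Abhd17b (chr19:21675901, neither type) 69.5 and 18.8. Speer4cos belongs to a family of near-identical copies, where reads can be split between copies. The site at chr7:61623432 is centred on a simple repeat, had no B6 share in either map and had a rescue H3K4me3 enrichment of 0. In the other direction an exon of Lamb1, a laminin gene (chr12:31267712, neither type), had 21.2 with the PWD mother (rescue) and 110.9 with the B6 mother (Hum/PWD), 5.23-fold lower. A site 947931 bp from Snrpn (intergenic, chr7:61088150, neither type) had 29.9 and 115.3. Sites 160487 bp from Otor (chr2:143242200), 171705 bp from Tm4sf1 (chr3:57113906) and in an intron of Exoc3 (chr13:74206165) had 14.9 and 54.1, 33.2 and 112.8, and 15.7 and 50.7. At those of the 10 sites that had a B6 share in both maps, it differed by less than 0.1.

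Of these 10 sites, 2 lay within 1 Mb of each other on chromosome 7, far from any of the genes that name them, and the stretch was looked at after this was seen. From 60 to 62 Mb of chromosome 7 there were 4 pairs. The heat at 3 of them differed by more than 3-fold: chr7:60530004 (52.2 rescue, 14.9 Hum/PWD), chr7:61088150 (29.9 and 115.3) and chr7:61623432 (54.3 and 14.5). The last of these is the repeat site described above. The fourth, in an intron of A330076H08Rik (chr7:61932770, Hum-type), had like heat, 134 and 117.9, but a B6 share of 0.953 with the PWD mother (rescue) and 0.186 with the B6 mother (Hum/PWD). A PWD-type site at chr7:60770548 was found in the Hum/PWD map alone, with a heat of 83.4. It was also in the B6/PWD map of the same direction, with 80.8, and not in the PWD/B6 map. From 62 to 64 Mb the pairs differed by less than 1.5-fold in heat. On the other flank chr7:58121424 had a heat of 15.7 (rescue) and 6.7 (Hum/PWD), and chr7:58834469 had 57.3 and 38.2.

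At most pairs the parental chromosome that was broken was nearly the same in both directions. Over 12369 pairs with a B6 share in both maps, Spearman's rho was 0.941 and the median difference, rescue minus Hum/PWD, was 0.002 (0.001 to 0.003) with an SD of 0.095. The shares lay within 0.05 of each other at 57.2% of pairs. A share from 0.1 to 0.9 in both maps, or below 0.1 in both, or above 0.9 in both, was found at 89.9% of pairs (89.3 to 90.4%). Of the sites broken on both chromosomes in the rescue map 6450, or 87.7%, were so in the Hum/PWD map. Of the others, 494 had a Hum/PWD share above 0.9 and 411 below 0.1. Fewer changed the other way: 192 rescue shares above 0.9 and 157 below 0.1 lay from 0.1 to 0.9 with the B6 mother. Among paired sites of neither type, 19.8% of rescue shares but 10.1% of Hum/PWD shares lay from 0.1 to 0.9. Medians by type were 0.536 and 0.509 in Hum-type sites (rescue, then Hum/PWD), 0.648 and 0.612 in PWD-type sites, and 0.167 and 0.112 in sites of neither type. The Hum-type and PWD-type medians of the difference were 0.004 and 0.003, so the shift in heat between alleles went with no such shift in these medians. With a mean share from 0.3 to 0.7 they were 0.020 (0.017 to 0.024) and 0.020 (0.012 to 0.028). Above 0.9 they were -0.005 and -0.004, and at most 0.1 they were 0.0045 and 0.019. By autosome the median difference over all pairs ran from -0.002 (-0.006 to 0.002) on chromosome 9 to 0.009 (0.004 to 0.013) on chromosome 11.

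A B6 share at least 0.2 higher in the rescue map was found at 395 pairs, 3.19% of those with both shares, and at least 0.2 higher in the Hum/PWD map at 277, 2.24%. The number of reads behind a share is not given, and such calls were denser at low heat: 7.39% and 5.53% in the coolest of 5 groups of pairs, 0.327% and 0.399% in the hottest. H3K4me3 of the rescue males, a readout that did not enter the calls, lay between both values. At 229 sites called higher in the rescue map with at least 10 informative H3K4me3 reads, the medians were 0.625 for rescue DMC1, 0.370 for Hum/PWD DMC1 and 0.524 for H3K4me3. At 159 called higher in the Hum/PWD map they were 0.290, 0.568 and 0.524. The H3K4me3 share was nearer to that of the rescue DMC1 map at 54.6% (48.1 to 60.9%) and at 32.7% (25.9 to 40.3%) of them. Over all pairs with such reads the H3K4me3 share followed both DMC1 maps alike, with a rho of 0.869 (n = 9800) for the rescue and 0.871 (n = 10066) for the Hum/PWD map. Differences in share, unlike those in heat, had next to no correlation with those of the B6-allele crosses (rho 0.034 over 3259 sites of the PWD allele).

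Among pairs with a heat of at least 50 in both maps, those with the largest excess of share in the rescue map were spread over chromosomes. Besides A330076H08Rik, an intron of Ryr3, a calcium channel gene (chr2:112923740), had 0.833 and 0.326, an intron of Eps8 (chr6:137531790) 0.824 and 0.414, and an intron of Gabbr2, a GABA receptor gene (chr4:46960756), 0.838 and 0.432. The rescue H3K4me3 share at A330076H08Rik was 0.827 over 102 informative reads, at Ryr3 0.799 over 10.0 and at Gabbr2 0.477 over 43.4.

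All 5 named for a lower share in the rescue map lay within 5 Mb of each other on chromosome 6. A site 1546 bp from Gstk1, a glutathione transferase gene (intergenic, chr6:42244389), was strong in both maps, with a heat of 380.2 and 388.5, and its B6 share was 0.297 with the PWD mother (rescue) and 0.985 with the B6 mother (Hum/PWD). A site 3492 bp from Moxd2 (intergenic, chr6:40890986, PWD-type) had a share of 0.014 and 0.526 with a heat of 151.7 and 234.5. A site 2119 bp from Mkrn1 (intergenic, chr6:39422581, PWD-type) had 0.227 and 0.757 with a heat of 65 and 174.7. A site 7028 bp from Gm5771 (intergenic, chr6:41385328, Hum-type) had 0 and 0.579, and an intron of Creb3l2 (chr6:37356293, Hum-type) had 0.120 and 0.645. Both alleles and sites of neither type were among them.

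The stretch from 37 to 47 Mb was then described in full, with its limits chosen after these values were seen. Of its 35 pairs 14 had a share at least 0.2 lower in the rescue map, 40%, against 2.92% on the rest of chromosome 6 and 2.09% on the other autosomes. Consecutive pairs with such a drop stood in a run of 3 (chr6:39357575 to 39520510) and a run of 6 (chr6:40307968 to 42260142), the only runs of 3 or more in that direction in the genome, and no run of 3 was found in the other. In the run of 6 the rescue share was 0 at 3 sites, 0.014 at Moxd2, 0.292 near Agk and 0.297 at Gstk1, and the Hum/PWD share was 0.385 to 0.985. The H3K4me3 of the rescue males had low shares there too: 0 over 50.7 informative reads at Moxd2, 0.181 over 20.4 at Gstk1, and 0 over 12.0 at a site 1828 bp from Tmem139. Of the 14 sites 12 had at least 5 such reads, and at 10 the H3K4me3 share was nearer to that of the rescue DMC1 map, against 7 of 14 such sites on the rest of chromosome 6 and 56 of 187 on the other autosomes. A neighbouring site in an intron of Slc37a3 (chr6:39355327) kept its share, with 0.483 and 0.494 at a heat of 507 and 560.9. In the PWD/B6 map of the same direction of cross the Moxd2 site had 0.560 and the Gstk1 site 0.989, and of 38 pairs of the B6-allele crosses in the stretch none had a share at least 0.2 lower in the PWD/B6 map.

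**Figure D5:**
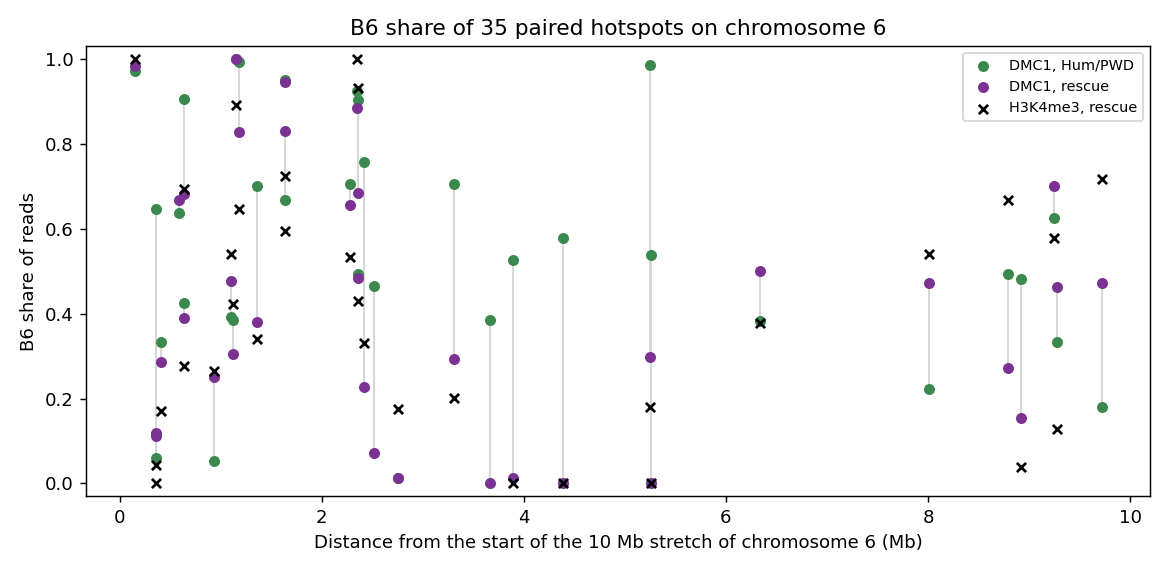
B6 share of DMC1 reads in the rescue map (purple) and the Hum/PWD map (green), joined by a grey line, and of rescue H3K4me3 with at least 5 informative reads (crosses), for the 35 pairs with both shares in a 10 Mb stretch of chromosome 6, against distance from its start. Between 3 and 6 Mb the rescue shares lie at 0 to 0.297 and the Hum/PWD shares at 0.385 to 0.985.

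Sites found in the rescue map alone were few and weak. Their median heat was 20.2, against 61.0 at the paired sites, and 526 of the 616 stood in the coolest of 5 groups of the rescue map. Of the hottest group, above a heat of 143, only 2 of 3004 had no partner. This small number depends on the longer Hum/PWD list: with that list reduced to its 15019 hottest sites, of heat 17.6 or more, 1862 rescue and 1866 Hum/PWD sites had no partner. By type 288 matched neither homozygous map (46.8%, against 19.7% of pairs), 240 were Hum-type and 82 PWD-type. No B6 share was given for 49.7% of them, against 13.6% of pairs. H3K4me3 of the rescue males was lower at them, with a median enrichment over background of 0.212 (0.165 to 0.253, 610 bins) against 0.999 (0.978 to 1.02, 14356 bins) at paired sites. At Hum-type sites it was 0.383 against 1.19. Summed over Hum-type bins, ChIP over input was 1.04 and 1.17 in the 2 biological replicates at rescue-only sites, against 2.06 and 2.35 at paired sites. In PWD-type rescue-only bins the median enrichment was 0.230, with 22.5% of bins at 0, against 0.901 at paired PWD-type sites, while the summed ratios were 10.9 and 11.6. The authors marked 26.3% of those bins as independent of PRDM9, against 6.49% at paired PWD-type sites.

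Of the 5 hottest rescue-only sites, 3 had a Hum/PWD hotspot just beyond the 1000 bp limit. A site 213961 bp from Klf3 (intergenic, chr5:64589427, heat 164) lay 1056 bp from a Hum/PWD hotspot of heat 329.5. An intron of 1500009L16Rik (chr10:83741671, 129.2) lay 1084 bp from one of 107, and an intron of Frem2 (chr3:53532156, 103.5) lay 1411 bp from one of 81.5. Of all 616 sites 14 lay between 1000 and 1500 bp from a Hum/PWD centre. The hottest was in a coding exon of Ntf3, the neurotrophin-3 gene (chr6:126101878, PWD-type), with a heat of 306.4 and a B6 share of 0.983, and the nearest Hum/PWD hotspot was 7341 bp away. Yet the site was in the PWD/PWD map with a heat of 266.4, the PWD/B6 map with 118 and the B6/PWD map with 142.1. It was also in the B6/CAST map of (B6xCAST)F1 males, which carry neither the PWD nor the Hum allele, with 185.2. A site 56357 bp from Cul1 (intergenic, chr6:47397041, Hum-type, 91.5) was in the Hum/Hum map with 27.2.

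Sites found in the Hum/PWD map alone were more numerous and mostly cool. Their median heat was 13.8, and 49% of the 6223 were below 13.7, the lowest heat of the rescue map. In the coolest of 5 equal groups of Hum/PWD hotspots 82.7% had no partner (81.6 to 83.9%), in the middle group 14.7% and in the hottest 0.0727%, 3 of 4125. They held more PWD-type sites than the pairs did: 2256 of 6223 or 36.3%, against 25% of pairs, with 37.3% Hum-type against 53%. Of the PWD-type ones 91.9% were also in the PWD/B6 map and 84.3% in the B6/PWD map, against 97.9% and 96.6% of paired PWD-type sites. Of the Hum-type ones 79.3% were also in the B6/Hum map, where the Hum allele acts in inbred B6 males, against 96.5% of paired Hum-type sites. The motif stood at 20% (18.5 to 21.7%) of the Hum-type and 4.70% (3.90 to 5.65%) of the PWD-type ones. In the Hum/Hum males themselves, sites later found in both hybrid maps had a median heat of 113 and a median H3K4me3 enrichment of 1.53, those found in the Hum/PWD map alone 46.4 and 0.684, and those in the rescue map alone 39.4 and 0.650.

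The hottest Hum/PWD-only sites were 1055726 bp from Fam135b (intergenic, chr15:70375883, PWD-type, heat 137.6, B6 share 0.018), in an intron of AC128703.1 (chr19:16922712, neither type, 134.8, share 0.993) and 332958 bp from Armc1 (intergenic, chr3:18798444, PWD-type, 126.3, share 0.019). The first and the third were also in the PWD/B6 map, with 46.9 and 47.1, and in the B6/PWD map, with 58.8 and 74.7. The second lay 1743 bp from a rescue hotspot of heat 292.4 and was in the PWD/B6 map with 150.5 and the B6/PWD map with 194.3. The share of Hum/PWD hotspots without a partner ran from 24.9% on chromosome 19 (21.6 to 28.4%) to 34.1% on chromosome 9 (31.4 to 37.0%).

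Gene lists gave the ratio at 2 kinds of loci. Imprinted genes, which are expressed from the maternal or the paternal copy, held 23 pairs at 14 of 46 genes within 2000 bp, with a median log2 ratio of -0.02 (-0.16 to 0.44), beside 0.12 over all pairs. None of the 23 differed 2-fold, beside 4.68% (rescue hotter) and 0.959% (Hum/PWD hotter) of all pairs, so the absence of calls is near the background. The strongest was an intron of Sgce (chr6:4684922), with a heat of 368.6 with the PWD mother (rescue) and 402.3 with the B6 mother (Hum/PWD) and a share of 0.402 and 0.429. Introns of Igf2r, the receptor that clears Igf2, held a site with 110.4 and 112 and shares of 0.450 and 0.513 (chr17:12716974), and Trappc9 held 6 pairs with log2 ratios from -0.22 to 0.52. Genes of meiotic recombination held 14 pairs at 12 of 43 annotated genes, with a median of 0.37 (0.14 to 0.63), and 12 of the 14 were hotter in the rescue map, against 60.2% of all pairs. That share was 72.5% of Hum-type and 36.7% of PWD-type pairs, and the list was not matched for type. None of the 14 differed 2-fold, beside 4.68% and 0.959% of all pairs, a background at which so few pairs show nothing about the list. They included an intron of the mismatch repair gene Mlh3 (chr12:85257107), with 140.3 and 81.5, an intron of Ankrd31, which is needed for break formation (chr13:96894678), with 173.9 and 140.5, and an intron of Dmc1 itself (chr15:79588504), with 39.9 and 33.3. Hormad2, a chromosome axis gene, had 181.1 and 245 (chr11:4408244, PWD-type), and Rec114, which helps to form the breaks, had 76.4 and 121.1 (chr9:58727618, PWD-type). A PWD-type site in a coding exon of Rec8 (chr14:55625118) went the other way, with 30.3 and 17. Near transcription starts, within 1000 bp, 349 pairs had a median of 0.27 (0.18 to 0.37), against 0.11 (0.10 to 0.12) at the other 14040. Those 349 were cooler, with median heats of 55.1 (rescue) and 46 (Hum/PWD), against 61.1 and 58.6. Over all pairs the median ratio was 0.44 in the coolest of 5 heat groups and 0.03 in the hottest. The contrast was not matched for heat or type.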

How the data were processed

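The submitters' processing notes name BWA and the builds mm10 and mm9; the lists used here are in mm10. What caller made the hotspots, and how heat is defined, is not given in the sources used here. In each map the deposited hotspot list gives heat, a relative signal, and the B6 share as a fraction of reads on the B6 chromosome, without read numbers. The deposited H3K4me3 tables give, per the file headers, fragment counts in 1 kb bins around hotspots for ChIP and input (2 biological replicates in the rescue), an enrichment ratio over background, and the B6 fraction with its informative reads as a signal. Autosomal centres of the 2 maps were paired as mutual nearest neighbours within 1000 bp and typed at the rescue centre (pandas 2.3.3, NumPy 2.4.6 and SciPy 1.17.1 under Python 3.11.15; sequences with pysam 0.24.0). Genes come from GENCODE M21. Shares have 95% Wilson intervals and medians 95% order-statistic intervals over sites; both cover the spread of sites, not of animals, and no test was run. Named sites were, outside bins with input over 10 times the median, the 5 hottest pairs, the 3 hottest per type, the 5 largest heat ratios per direction with a heat of at least 50 in one map, the 5 largest B6 share differences per direction with 50 in both, the 5 hottest unpaired sites per map, and sites within 2000 bp of 2 gene lists. Some sites that meet the rule are not reported here. Members and lists were chosen with earlier results of these data known. The pairing code was checked on simulated data.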

Additional observations from a re-analysis of the deposited data

How the results depend on the processing

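Of 75 recomputed values 57 stayed near the reported one and 18 moved. With the Hum/PWD list reduced to the length of the rescue list, 1862 rescue and 1866 Hum/PWD sites had no partner (616 and 6223 in full). With a heat of at least 50 in both maps, the rank correlation was 0.894 for heat and 0.953 for the B6 share, 38 and 27 pairs differed 2-fold (rescue hotter, then Hum/PWD hotter), the Hum-type minus PWD-type median was 0.28, and 91 and 59 pairs differed by 0.2 in B6 share. Ratios divided by their median gave 425 and 249 2-fold pairs, and a 3-fold limit 44 and 8. A share difference of 0.1 gave 1504 and 1074 pairs. Within PWD-type sites 2 of 19 autosomes had a median above 0, against 19 over all pairs, so the sign turned on 17. The Hum-type minus PWD-type median was 0.34 in the coolest and 0.23 in the hottest of 5 groups of pairs, settings added after seeing the data. Without the 10 Mb of chromosome 6, also added later, 393 and 263 pairs differed by 0.2 in share, and without the last 5 Mb of each chromosome 655 and 119 differed 2-fold. No paired analysis was possible because each direction has 1 library. Neither read depth nor the reads behind a B6 share are given, which limits cool sites most.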

Other observations

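Parental sites were found more often in the Hum/PWD map alone than in the rescue map alone. The Hum/PWD list reaches further, with 20623 sites from a heat of 5.8, against 15019 from 13.7. With the Hum/PWD list cut to the length of the rescue list, 1862 rescue and 1866 Hum/PWD sites had no partner. The parental sites were not recounted with lists of equal length. Of the Hum/Hum sites 51.3% were in both hybrid maps, 15.4% in the Hum/PWD map alone, 1.61% in the rescue map alone and 31.8% in no map, with median heats in Hum/Hum males of 113, 46.4, 39.4 and 27.1. Of the PWD/PWD sites 18.6% were in both, 11.1% in the Hum/PWD map alone, 0.488% in the rescue map alone and 69.9% in no map, with median heats in PWD males of 135.4, 95.7, 53.1 and 26.3. Hybrid sites thus came from the hotter parental sites in each group.

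Pairs with unequal heat also differed in H3K4me3 of the rescue males. Median enrichment was 0.505 (0.458 to 0.565, n = 664) where the rescue map was at least 2-fold hotter, 1.033 (1.01 to 1.06, n = 13553) within 2-fold and 0.728 (0.610 to 0.968, n = 137) where the Hum/PWD map was at least 2-fold hotter. Summed ChIP over input had another order, 2.48 and 2.70 in the 2 replicates for the first group, 1.88 and 2.13 for the second and 1.46 and 1.68 for the third. Median rescue heat in the 3 groups was 35.05, 64.1 and 32.1, and enrichment went with heat over all pairs (Spearman's rho 0.612 for rescue heat and 0.603 for Hum/PWD heat). Of the pairs hotter in the rescue map 63.2% were Hum-type and 13.1% PWD-type, and of those hotter in the Hum/PWD map 16.8% and 53.3%.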
